A study of Arabidopsis thaliana with 4 samples.

Results

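Cells of the Arabidopsis thaliana line MM2d, grown in suspension, were compared on day 5 and day 3 after dilution into new medium. Both groups were the same line under the same described conditions, and the sample descriptions differed only in the day. An early-stationary culture, 7 days old, was diluted as 5 ml into 100 ml of medium with 3% sucrose, NAA (an auxin, 0.5 mg/l) and kinetin (a cytokinin, 0.05 mg/l), and the flasks were kept dark at 27 °C and 130 rpm. Total RNA of each day was hybridised to 1 Affymetrix ATH1 array. The comparison uses 2 of the 4 arrays in the series, the others being days 1 and 7. There was no replicate, so every difference below is one between single arrays and carries no test.

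The deposited value of a probe set is a signal on a linear scale. Of 22746 probe sets, 61.2% lay above a floor of 25 on day 5 and 60.5% on day 3, and the median signals were 43.2 and 41.4. A signal below 25 was raised to 25, and a ratio against it is a bound, written with "at least". In all, 14688 probe sets exceeded 25 on at least 1 of the 2 arrays and are called measured. The arrays are scaled to the same mean signal, so a value is a share of the labelled RNA, and fewer cells of a type cannot be told apart from less RNA per cell. The ratio of 3' to 5' signal of the newer set of actin control probes, a measure of RNA integrity, was 1.18 on day 5 and 1.09 on day 3, while the older actin set gave 2.13 and 3.63.

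A plant suspension culture passes through phases. Diluted cells resume growth, then divide and build cytoplasm while sugar and minerals last, and finally enlarge and recycle their contents as the medium is used up. Ribosome production is among the largest costs of the dividing cell. Autophagy and vacuolar proteases serve recycling, and genes of the low-oxygen response rise when respiration outruns the supply of oxygen.

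Of the 14688 measured probe sets, 955 were at least 2-fold higher on day 5 than on day 3 (6.5%) and 585 at least 2-fold lower (3.98%). At least 4-fold, the counts were 205 higher and 64 lower, and at least 8-fold 62 and 14. The median log2 ratio over all measured probe sets was -0.01. The probe sets nearest the limit stood at 1.0003 inside it and 0.9999 outside it among those higher, and at -1.002 and -0.9999 among those lower.

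The balance between the directions shifted with signal. Among measured probe sets with a mean signal of 100 to 200, 7.87% were higher on day 5 and 4.09% lower. Among those with a mean of 800 or more, 6.21% were higher and 8.10% lower. Abundant transcripts were called lower more often than higher, and less abundant ones the reverse.

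**Figure D1:**
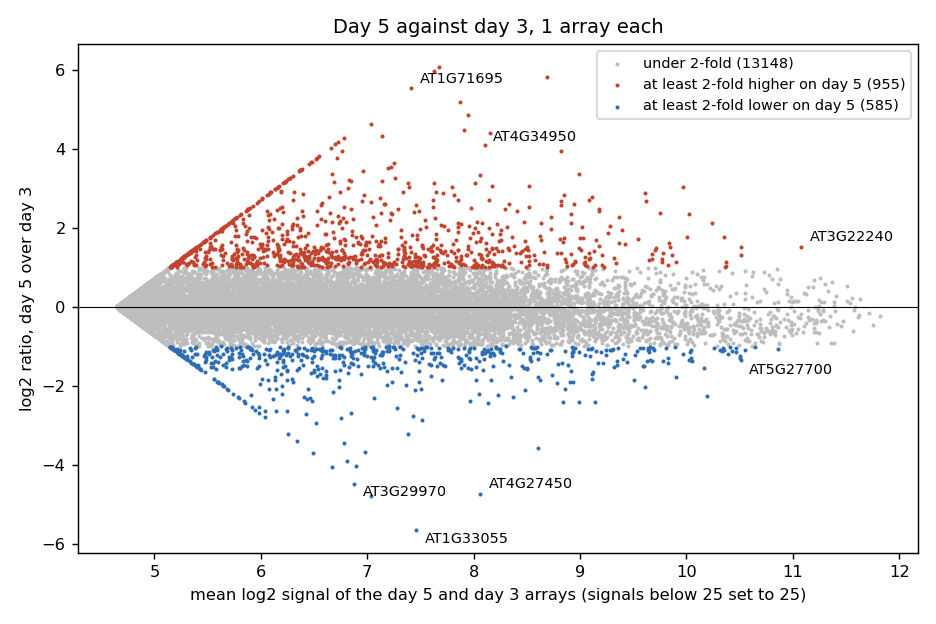
Log2 ratio of day 5 over day 3 (vertical) against the mean log2 signal of both arrays (horizontal), 1 point per measured probe set. The 955 red points were at least 2-fold higher on day 5, the 585 blue points at least 2-fold lower, and genes discussed in the text are marked.

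How well 2 probe sets of 1 gene matched gives the only gauge of error. Over 94 genes with 2 measured probe sets, the SD of a single probe set's log2 ratio was 0.36, an error that leaves out anything both probe sets share, such as a difference between flasks. Of 23 called probe sets with a partner, the partner changed in the same direction for 22 and passed 2-fold for 12. These 12 are both probe sets of 6 genes, each gene being counted from both sides. AT3G44510 (log2 ratios of 3.16 and 3.25) and AT2G06040 (-2.38 and -2.14) were called alike by both of their probe sets.

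Of the 1540 called probe sets, 806 name a single gene and 669 of those carry only a locus code. Families given below for locus codes are general knowledge of the Arabidopsis genome, given as background. At the level of genes, 482 of 8187 measured were at least 2-fold higher on day 5 (5.89%) and 309 at least 2-fold lower (3.77%). Counts of called genes in the lists below are to be read against these shares.

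Among probe sets that name 1 gene and bear no cross-hybridisation mark, the largest rise was that of AT1G71695, a class III peroxidase, one of the secreted enzymes that cross-link and loosen cell walls. Its signal was 1158 on day 5, against 16.4 on day 3, at least 46.3-fold higher. AT4G34950, of the major facilitator family of membrane transporters, had 1133 on day 5 and 66.9 on day 3, 16.9 times as much, and its family member AT2G16660 had 1221 and 199.6, 6.12 times as much. Both transporters were near their day 5 signal again on day 7, at 1322 and 1118.

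AT1G23140, a C2-domain protein, gave signals of 848 on day 5 and 84.5 on day 3. AT2G42690, a lipase of the phospholipase type, had 832 on day 5 and 100.1 on day 3. AT3G02910, of the AIG2-like family, had 1061 on day 5 and 127 on day 3. All 3 were at least 8-fold higher on day 5, and none lay below the floor on day 3. AT5G63130, a PB1-domain protein, was 9.53-fold higher, with 475 on day 5 and 49.8 on day 3.

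AT2G38740, a hydrolase of the haloacid dehalogenase family, was 7.42-fold higher (signals of 570 on day 5 and 76.8 on day 3), AT1G49050, an aspartyl protease, 6.01-fold. AT5G60800, with a heavy-metal-associated domain, had 199.4 on day 5 and 26.6 on day 3. AT5G09570, a small protein of the CHCH type known from the mitochondrial intermembrane space, had 351 on day 5 and 57.9 on day 3. It was the one of these whose signal went on to 1087 on day 7. AT1G44060 differed from the rest in its course, with signals of 288, 34.3, 308 and 42.1 on days 1, 3, 5 and 7.

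Some genes were below the floor on day 3 and clearly measured on day 5. AT5G44400, of the berberine-bridge-type oxidases, had 335 on day 5 and 24.7 on day 3, at least 13.4-fold higher. AT5G11940, a subtilisin-like protease, had 318 on day 5 and 1.69 on day 3, at least 12.7-fold higher. AT5G42830, of an acyltransferase family, had 273 and 24.4, and AT1G08310, a hydrolase, 269 and 2.26. These genes parted later, since on day 7 AT5G44400 was again under the floor and AT1G08310 at 492.

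Among the most abundant transcripts that rose, the highest on day 5 was AT3G22240, at 3642 on day 5 and 1279 on day 3. LCR68, a defensin-like secreted peptide, had 2464 on day 5 and 862 on day 3. BGLU28, a beta-glucosidase, had 1890 on day 5 and 558 on day 3, but had already been at 2368 on day 1. AT1G22410, which encodes an enzyme of the first step of aromatic amino acid synthesis, was 3.85-fold higher, and AT1G43910, an AAA-type ATPase, 5.35-fold.

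**Figure D2:**
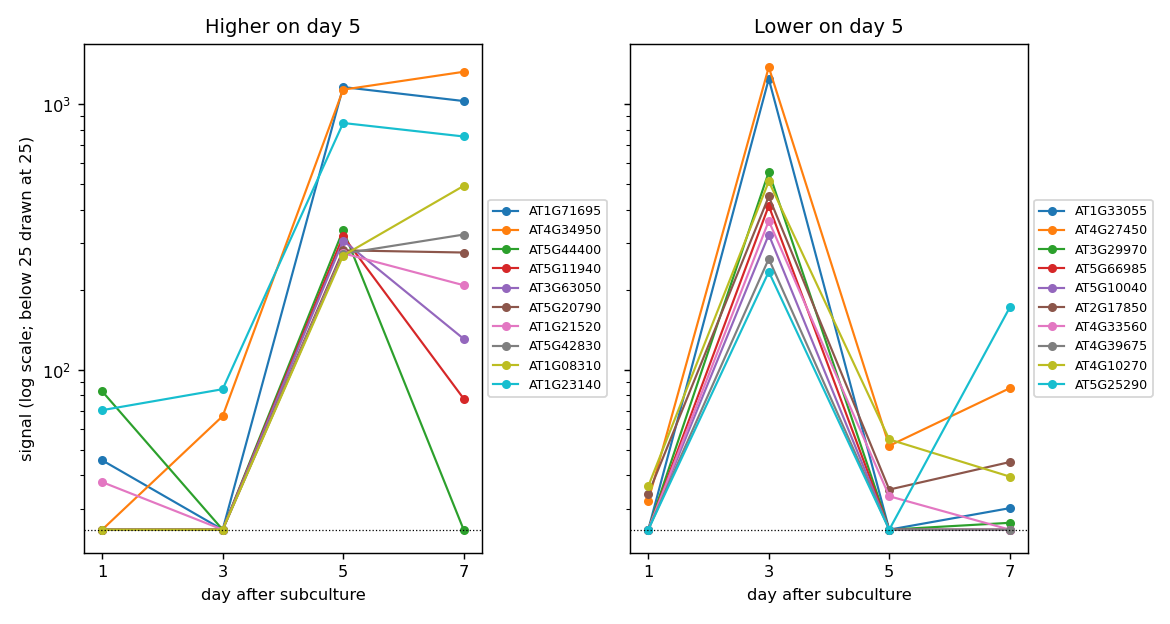
Signal on days 1, 3, 5 and 7 (log scale, values below 25 drawn at 25 on the dotted line) of the 10 named genes with the largest log2 ratio of day 5 over day 3 in each direction, 1 array per day. Most genes of the right panel stand out on day 3 alone, as AT4G27450 does with 1377 on that day and 32.2, 51.7 and 85.2 on days 1, 5 and 7.

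Genes of recycling were higher in part. None of 3 lists held a gene called lower, but only 3.77% of all measured genes were lower. All 15 measured genes of the autophagy list lay above 0 (median log2 ratio 0.59), against 48.7% of all measured genes, and 3 of the 15 were at least 2-fold higher. ATG8F, one of the proteins that coat the forming autophagosome, gave signals of 613 on day 5 and 215 on day 3, and its relative ATG8E had 367 and 182. AT3G61960, a kinase of the complex that starts autophagy, had 231.5 on day 5 and 113.5 on day 3. The other 12 lay between 0.04 and 0.90 log2, under the 2-fold limit.

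ESCRT proteins sort membrane proteins into vesicles bound for the vacuole. Of 11 measured genes 3 were higher (27.3%, against 5.89% of all) and 0 lower, with a median of 0.58. SNF7.1 was 2.57-fold, VPS60.1 2.17-fold and VPS20.1 2.11-fold higher, all 3 being parts or partners of the filament that pinches the vesicle off. VPS2.1, of the same filament, had a log2 ratio of -0.53, and SNF7.2 one of -0.44.

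The senescence and vacuolar proteolysis list had 3 of 7 measured genes higher (42.9%, against 5.89% of all) and 0 lower, with a median of 0.85. GAMMA-VPE, a vacuolar processing protease, gave signals of 843 on day 5 and 214 on day 3. SAG101, a senescence-associated lipase-like protein, had 217.5 on day 5 and 54.2 on day 3, and WRKY6, a transcription factor, 214 and 85.4. BETA-VPE, a second processing protease, had 17.1 on day 5 and 35.7 on day 3, a difference under 2-fold with the floor. WRKY6 was the single gene called among the 6 measured WRKY factors, whose median log2 ratio was 0.75.

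Genes of small secreted signalling peptides were higher in part. Of 8 measured RALF and CLE genes 4 were higher and 0 lower (median 0.99). CLE44 gave signals of 119 on day 5 and 27.4 on day 3, and CLE41, which gives the same kind of peptide known to hold back xylem differentiation, 111 and 49.4. RALFL33, of the peptides that alkalinise the wall space, had 735 on day 5 and 212 on day 3, and RALFL28 65.6 and 2.67. RALFL34 was below the floor on day 5 and at 45.7 on day 3, at least 1.83-fold lower.

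Of 42 listed genes of sugar transport, sucrose and starch, 6 were measured. Among these, 2 were at least 2-fold higher (33.3%, against 5.89% of all measured genes) and the other 4 were not called. SWEET10, a sugar transporter, had 222 on day 5 and 10.4 on day 3, at least 8.89-fold higher. ATSPS4F, a sucrose-phosphate synthase, had 202 on day 5 and 19.0 on day 3, at least 8.09-fold higher. Both were still as high on day 7, at 427 and 211.5.

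Enzymes that attach or remove sugars on small molecules were higher in a few members. Of 9 measured beta-glucosidases 3 were higher (33.3%) and 0 lower, against 5.89% and 3.77% of all measured genes. BGLU46, known for acting on the glucosides of lignin precursors, had 175 on day 5 and 37.2 on day 3, BGLU28 is given above, and BGLU31 was at least 2.51-fold higher. Of 20 measured UDP-glycosyltransferases 3 were higher and 0 lower, with a median of 0.11. They were UGT73D1 (3.91-fold), GT72B1 (2.78-fold) and UGT76B1 (at least 2.47-fold).

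Histone H2B genes lay above 0 and most mitotic genes below it. All 4 measured genes of the core histone list encode H2B and lay above 0 (median 0.67), and 1, HTB2, was called, with 569 on day 5 and 269 on day 3. Of 16 mitotic genes, 14 lay below 0 (median -0.37), while 48.7% of all measured genes lay above 0. Only 1 was called lower (6.25%), near the 3.77% of all measured genes. This was BUB3.1, of the spindle checkpoint, at 82.4 on day 5 and 214 on day 3. The Aurora kinases AUR3, AUR2 and AUR1 had log2 ratios of -0.90, -0.64 and -0.14.

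**Figure D3:**
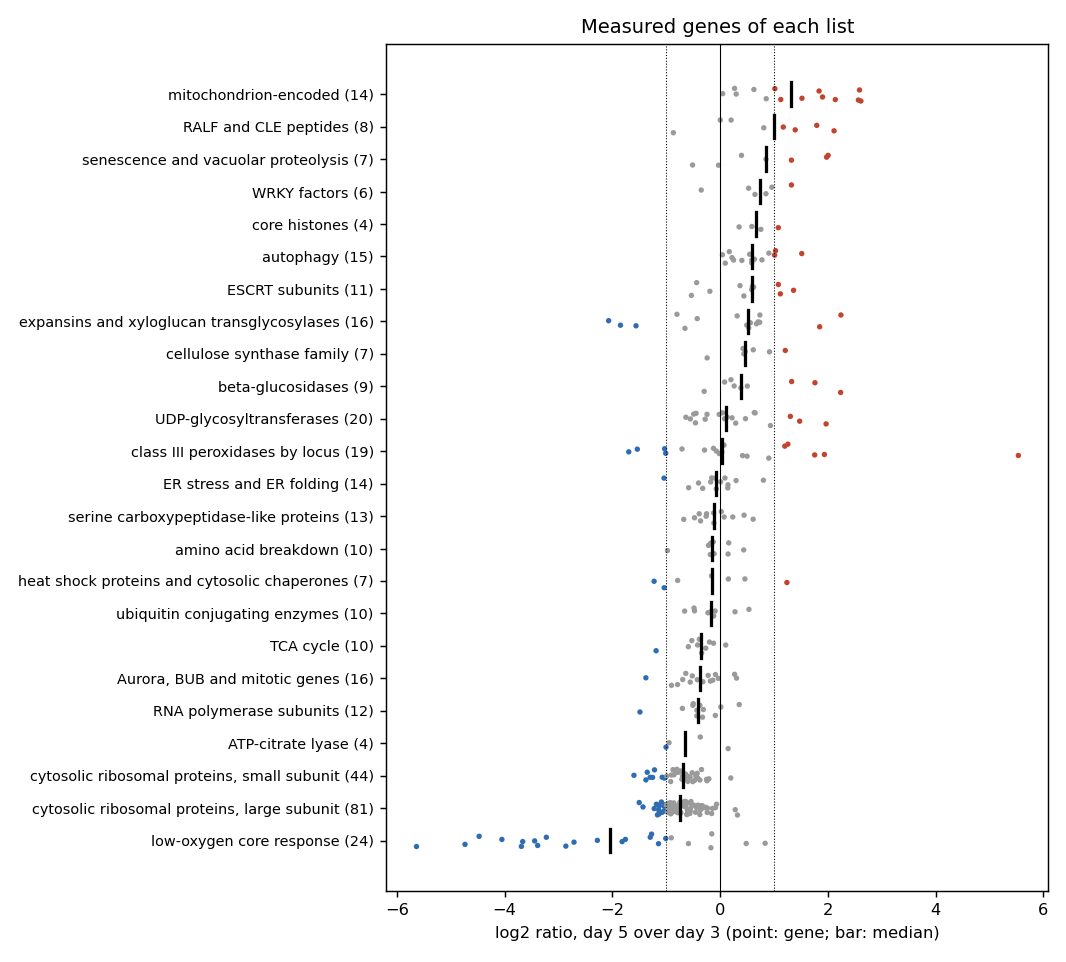
Log2 ratio of day 5 over day 3 of the measured genes (points) of 24 lists, with the number measured after each name and the median as a bar. Red points are at least 2-fold higher on day 5 and blue points at least 2-fold lower; the low-oxygen list lies lowest (median -2.05) and the mitochondrion-encoded genes highest (median 1.32).

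Transcripts encoded by the mitochondrial genome were higher on day 5. The 14 measured genes all lay above 0 (median 1.32) and 9 were called. The cytochrome c maturation genes ccb452 and ccb382 had signals of 796 and 1098 on day 5, against 130 and 185.5 on day 3. Another such gene, ccb206, had a log2 ratio of 0.05, so the rise was not shared by every maturation gene. Subunits of respiratory complex I were also uneven, with nad9 at 232 on day 5 and 38.7 on day 3 and nad6 at 102 and 83.2. For nad5, a probe set with a cross-hybridisation mark had 142 and 16.9, a log2 ratio of at least 2.51. The other nad5 probe set had a log2 ratio of 1.77.

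A stretch of nuclear chromosome 2 holds a copy of mitochondrial DNA, and probe sets for loci there can read transcripts of either genome. Of 20 measured loci coded AT2G07667 to AT2G07777, 9 were higher and 0 lower (median 0.77). AT2G07751 had 201 on day 5 and 26.5 on day 3, and AT2G07741 577 and 160. AT2G07739 had 210 on day 5 and 298 on day 3, so the stretch did not move as a whole. These values cannot be added to those of the mitochondrial genes as separate evidence. Of 10 measured nuclear genes of the tricarboxylic acid cycle list, 0 were higher and 1 lower, with a median of -0.36. The list also holds enzymes outside the mitochondrial cycle, among them the plastid MDH (log2 ratio -0.12). The one lower was SDH1-2, a succinate dehydrogenase subunit, with 28.0 on day 5 and 63.9 on day 3.

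The medians of plastid-encoded genes differed by function, with genes on both sides of 0 in each class, in cells kept in the dark. Of 33 genes for photosystems, the cytochrome b6f complex, ATP synthase and Rubisco, 9 were higher and 0 lower (median 0.59). The photosystem II genes psbN and psbA had 215 and 505 on day 5, against 39.8 and 123 on day 3. The 10 genes of the NDH complex, which returns electrons to the photosynthetic chain, had a median of 0.76 with 0 called. Of 19 genes for the plastid's ribosome and RNA polymerase, 2 were higher and 5 lower (median -0.60). The ribosomal genes rps4 and rps19 had 519 and 294 on day 5, against 1767 and 1043 on day 3. Within the same class, rpl20 had 199.7 on day 5 and 76.7 on day 3.

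**Figure D4:**
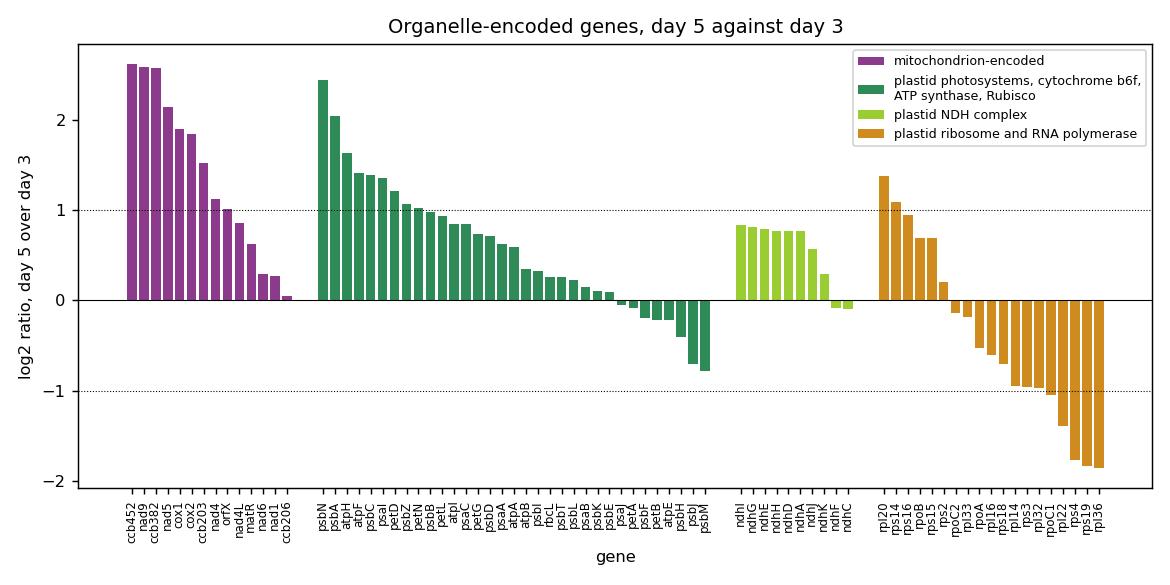
Log2 ratio of day 5 over day 3 of each measured organelle-encoded gene, in 4 classes, with dotted lines at 2-fold. All 14 mitochondrial genes lie above 0, and the plastid's ribosome and RNA polymerase genes run down to -1.85 (rpl36).

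Among the deepest falls were those of the low-oxygen response, which plants turn on when oxygen is scarce. Of 24 measured low-oxygen genes 18 were lower and 0 higher on day 5 (median log2 ratio -2.05). AT1G33055 gave signals of 17.9 on day 5, against 1243 on day 3, at least 49.7-fold lower. AT4G27450 had 51.7 on day 5 and 1377 on day 3, 26.6-fold lower, and AT3G29970 was below the floor on day 5 and at 555 on day 3, at least 22.2-fold lower. All 3 had been low on day 1 as well, with signals of 19.4, 32.2 and 8.38.

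Other members show what kinds of protein the list holds. AT5G66985 had 2.51 on day 5 and 414 on day 3, at least 16.6-fold lower, and AT5G10040 had 19.0 and 322. Outside the 5 largest, AT2G17850, a rhodanese-like protein, was 12.7-fold lower, AT5G44730, a hydrolase of the haloacid dehalogenase family, 7.28-fold, and AT3G03270, a universal stress protein, 6.55-fold. The 6 members not called ran from -0.91 to 0.83 log2.

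Further genes fell that are outside the list. AT3G22550, of a family of small zinc-finger proteins, had 66.1 on day 5 and 448 on day 3, and was back at 440 on day 7. AT2G03780, of the translin family of nucleic acid-binding proteins, had 150 on day 5 and 733.5 on day 3. AT5G48480, of the glyoxalase-like family, had 139 on day 5 and 649 on day 3. AT5G25290, an F-box protein, was below the floor on day 5 and at 234 on day 3, at least 9.35-fold lower, and stood at 171.5 on day 7. Unlike most of the low-oxygen genes named, AT3G22550 and AT5G25290 were thus high on day 7 as well as on day 3. AT5G44050, a multidrug efflux transporter, was 3.88-fold and AT1G54050, a small heat-shock-like protein, 4.23-fold lower.

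Cytosolic ribosomal protein genes were lower nearly throughout, mostly by less than 2-fold. Of 125 measured genes, 122 lay below 0, 23 were at least 2-fold lower and 0 higher (median log2 ratio -0.73). The share called lower was larger than the 3.77% of all measured genes. Their median signal was 814 on day 5 and 1397 on day 3, and their probe sets held 3.81% of the summed signal on day 5 and 6.03% on day 3. Over days 1, 3, 5 and 7 the median signal was 1732, 1397, 814 and 568. The subunits of the ribosome did not part, with a median of -0.69 over 44 small subunit genes (9 lower) and -0.75 over 81 large subunit genes (14 lower).

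Of the 8 genes picked for the highest day 3 signal among those that fell, 7 were of this class. AT5G27700, of the small subunit, had 912.5 on day 5 and 2332 on day 3. AT2G19730, of the large subunit, had 950.0 on day 5 and 2108 on day 3. AT1G36240, also of the large subunit, was one of the furthest down, with 462.5 on day 5 and 1310 on day 3. The exceptions above 0 were AT5G67510 (0.32) and AT2G40010 (0.28) of the large subunit and AT5G09500 (0.20) of the small subunit. Near-identical copies of many ribosomal protein genes exist, and their probe sets may read more than one copy.

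**Figure D5:**
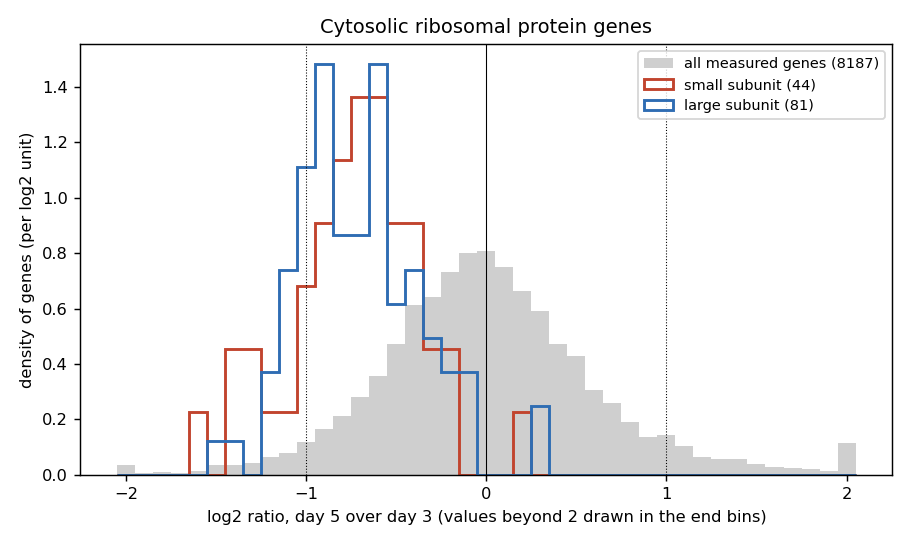
Distribution of the log2 ratio of day 5 over day 3 (density per log2 unit) of small subunit (red) and large subunit (blue) ribosomal protein genes and of all 8187 measured genes (grey). Both subunits lie to the left of 0 with medians of -0.69 and -0.75. The dotted line at 2-fold lower is passed by 9 of 44 small and 14 of 81 large subunit genes. These are larger shares than the 3.77% of all measured genes.

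Subunits of the nuclear RNA polymerases had 10 of 12 measured genes below 0 (median -0.40). Only 1 was called lower (8.33%, against 3.77% of all measured genes). NRPB7, of the stalk of polymerase II, had 173.5 on day 5 and 487 on day 3. The catalytic subunits NRPA1 and NRPA2 of polymerase I lay at -0.33 and -0.38. ATP-citrate lyase, which supplies acetyl-CoA to the cytosol for lipids and sterols, had 3 of 4 genes below 0 (median -0.66). Only ACLA-2 was called, with 104 on day 5 and 209.5 on day 3, and 4 genes are too few to set against the share of all genes.

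Cell wall genes moved both ways. Of 16 measured expansin and xyloglucan transglycosylase genes, 2 were higher and 3 lower (median 0.51). EXPA15 and EXPB3, expansins that loosen the wall, had 42.4 and 146 on day 5, against 178 and 432 on day 3. The expansin-like EXLA2 had 238 on day 5 and 50.4 on day 3. Closely related transglycosylases parted too, with XTH19 at 547 on day 5 and 152 on day 3 and XTH20 at 56.0 and 202. Of 7 genes of the cellulose synthase family only CSLC5, of the class that makes the xyloglucan backbone, was called, with 198 on day 5 and 85.5 on day 3.

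Class III peroxidases were likewise divided, with 5 of 19 measured genes higher and 4 lower (median 0.03). Beside AT1G71695, AT5G06730 had 599 on day 5 and 157 on day 3, and AT5G17820 had 460 and 136. AT5G64120 had 40.4 on day 5 and 131 on day 3, and AT3G28200 91.4 and 265. The median's sign turned with a floor of 10 and also with a common median.

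Genes next to each other were in places called together. Among 2543 pairs of adjacent measured genes, 16 pairs were both higher, 6 both lower and 9 opposite. Counted from both genes of each pair, 32 of 284 neighbours of a higher gene were higher (11.3%), against 5.89% of all measured genes. Counted in the same way, 12 of 184 neighbours of a lower gene were lower (6.52%), against 3.77%. Examples are AT3G51440 and AT3G51450, at 2.01 and 1.83 log2, and AT5G52750 and AT5G52760, at 2.34 and 2.98. Such neighbours can be related copies whose probe sets read each other's transcripts, which was not tested. The pairs both higher also include AT2G07674 with AT2G07751 and AT2G07707 with AT2G07708. These lie in the stretch of chromosome 2 that holds a copy of mitochondrial DNA.

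Several lists held few calls or none. Among 14 genes of protein folding in the endoplasmic reticulum, 0 were higher and 1 lower (median -0.08). Amino acid breakdown had 0 of 10 genes called, the LSM and splicing factors 0 of 13 and the ubiquitin proteases 0 of 12. Heat shock proteins had 1 of 7 higher and 2 lower. AT5G51440, a small heat shock protein, had 44.0 on day 5 and 103 on day 3, and the median (-0.16) turned positive with a floor of 50.

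By chromosome, between 5.23% and 6.87% of the measured genes on each of the 5 nuclear chromosomes were higher and between 3.15% and 4.17% lower. The organelles differed from this, with 9 of 14 mitochondrial genes and 13 of 69 plastid genes higher.

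Markers of differentiated leaf, root hair and other cells could hardly be read. Of 17 markers listed, 2 had a probe set assigned to that gene alone. RCA, the Rubisco activase of green tissue, had 149.7 on day 5 and 112 on day 3, and the root hair expansin EXPA7 was below the floor on both days.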

How the data were processed

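The 4 arrays are MM2d cells on days 1, 3, 5 and 7, 1 array per day. The authors deposited linear signal intensities from MAS5 (per the submitters' processing notes), version not given in the sources used here. The mean signal with 2% trimmed at each end is 100.0 on both arrays. Detection calls were not used here. From the 22810 probe sets, 64 controls were left out, signals below 25 were raised to 25, and the log2 ratio of day 5 over day 3 was taken, with Python 3.11.15, pandas 2.3.3 and scipy 1.17.1. A 2-fold ratio is called. With 1 array per day there is no test, and arrays limit the precision by their number.

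Gene names come from the annotation table of the array (13513 probe sets with 1 gene, 503 with several, 8730 with none, which stay unnamed) and RefSeq's gene table, to which 13436 matched. A gene's value is the mean over its measured probe sets. No descriptions are given there.

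The comparison and the lists were chosen with earlier results of these data known. Of 56 lists written first, 20 had at least 4 measured genes. Lists of mitochondrion- and plastid-encoded genes and of phosphate starvation among them matched no probe set, and descriptions to prune lists by were lacking. A further 43 lists were written once the annotation was known, and 39 of them had at least 4 measured genes. These further lists were trimmed of wrongly matched symbols and of repeats after values had been seen. Not every list with at least 4 measured genes is described above. The lists written first were not trimmed. Some lists share genes. Open to naming were the 20 largest ratios each way with both arrays above 25, the 12 largest with 1 array above and the 8 highest signals each way. Of each list, the 5 largest were open to naming, or all in lists of up to 8. Not all of the genes open to naming are named above. Named outside this rule, with values seen, are ccb206, nad6, VPS2.1, SNF7.2, AUR1, MDH, NRPA1, NRPA2, AT2G07739, AT5G09500, AT2G40010, AT5G67510 and the neighbour pairs. The calling step was tested on simulated data.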

Additional observations from a re-analysis of the deposited data

How the results depend on the processing

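No paired analysis was possible because each day is 1 array and the groups share fewer than 2 replicate numbers; for the same reason no array could be left out. The 955 probe sets higher became 332 with a 3-fold limit and 2249 with a 1.5-fold limit. The 585 lower became 127 and 1953 with those limits and 903 with a floor of 10. With a floor of 50, no floor, a common median, quantile normalization, no cross-hybridising probe sets or both arrays above 25, both counts stayed within 1.5 times. A common median gave 844 higher and 694 lower, so 54.9% of the called were higher, against 62.0% as deposited. Of the 80 probe sets open to naming by ratio or signal, 77 were still called with a floor of 50 and 75 after quantile normalization. All 80 were called under the other settings. Their log2 ratios moved by more than the SD between probe sets for 36 with a floor of 50 and for 17 each with a floor of 10 and no floor, and none changed sign. In all, 18 of the 59 lists had a median of at least 0.5 in either direction, with 17 to 20 under the alternatives. The medians of 10 lists, between -0.25 and 0.31, changed sign under some setting. Among those described above, that of the peroxidases (0.03) did so with a floor of 10 and with a common median, and that of the heat shock proteins (-0.16) with a floor of 50. Values were judged as moved against the 0.36 log2 SD between probe sets of 1 gene, since there is no replicate spread. Signals near the floor limit the precision: 168 of the higher probe sets were below 25 on day 3 and 81 of the lower were below it on day 5, so their ratios are bounds.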
